A study of Mus musculus with 2 samples.

Results

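The genes studied were 7 that encode ion channels and a pump controlling the membrane voltage and the calcium level of the aldosterone-producing cell: Kcnk3, Kcnk9, Kcnj5, Cacna1d, Cacna1h, Clcn2 and Atp2b3. They were chosen by symbol for their known roles in adrenal physiology and human aldosterone disorders, by a rule that uses no measured value, and all 7 were matched among the 55536 annotated genes of the deposited tables. The tissue was adrenal gland of male B6CASTF1/J mice, a first-generation hybrid of C57BL/6J and CAST/EiJ, at 10 days of age, and the labels name no treatment. Total RNA was depleted of ribosomal RNA and made into stranded libraries with ERCC spike-ins from 300 ng of RNA each. The 2 libraries are replicates of 1 group. Whole glands hold cortex and medulla together, and markers of other tissues were also present. Each value is therefore an average over all cells of the sample, not of the adrenal gland alone.

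Cells of the zona glomerulosa, the outer layer of the adrenal cortex, make aldosterone with the enzyme encoded by Cyp11b2. At rest their membrane is held at a strongly negative voltage by potassium leak channels. Angiotensin II or a raised potassium level in blood depolarises the membrane, voltage-gated calcium channels open, and the calcium that enters drives Cyp11b2 transcription until pumps export it. Variants of KCNJ5, CACNA1D, CACNA1H, CLCN2 and ATP2B3 are known from human aldosterone-producing adenomas or familial hyperaldosteronism, and mice that lack Kcnk3 or Kcnk9 have altered aldosterone output.

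Expected counts on annotated genes totalled 36652695 in replicate 1 and 38641442 in replicate 2. The 7 genes held 42087 and 32688 of them, or 11.5 and 8.46 per 10000. All 8 cortex markers and all 9 zona glomerulosa markers had at least 1 TPM (transcript abundance per length, scaled to a fixed total) in both libraries. Of 5 kidney markers 3 were at 0 in both. The kidney list summed to 0.79 and 0.48 TPM, of which Aqp2 made up 0.79 and 0.45 TPM. Markers of other tissues were present too. All 7 brown adipocyte markers reached 1 TPM in both libraries and summed to 3483 and 3076 TPM. The libraries differed in markers of other tissues. The summed level of 6 liver markers was 3621 TPM in replicate 1 and 11354 in replicate 2, and that of 7 skeletal muscle markers was 305 and 836 TPM. The part of these in the results below was not tested. The labels number the animals in conflicting ways and give both samples 1 donor identifier, so the spread between the libraries may not be a spread between animals. With 1 library on each side there is no residual spread, so ratios between the libraries carry no p-value.

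The 3 potassium channels share a stretch of the pore, the selectivity filter, and it is shown first because it is the part that Kcnj5 has in common with the leak channels, while the bases around it differ. Each line gives 45 coding bases, 5′ to 3′, from the GENCODE M21 transcripts on mm10, with the codons of the first filter signature in capitals.
Kcnk3: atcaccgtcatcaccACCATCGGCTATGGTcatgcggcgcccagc
Kcnk9: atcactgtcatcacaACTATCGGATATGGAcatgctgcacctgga
Kcnj5: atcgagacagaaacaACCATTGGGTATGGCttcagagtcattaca
The Kcnk3 stretch (coding bases 262 to 306) lies at chr5:30588578-30621913 on the plus strand and spans an intron. That of Kcnk9 has the same coding positions, lies at chr15:72513022-72546018 on the minus strand, and also spans an intron. The Kcnj5 stretch (coding bases 430 to 474) lies within an exon at chr9:32322544-32322588 on the minus strand. Kcnk3 and Kcnk9 shared 35 of the 45 bases, and each of them shared 19 and 20 with Kcnj5. Within the capitals alone 12 of 15 bases were shared by Kcnk3 and Kcnk9, 12 by Kcnk3 and Kcnj5, and 11 by Kcnk9 and Kcnj5. The signature occurs 2 times in the translated Kcnk3 and Kcnk9 sequences, whose subunits each carry a pair of pore loops, and 1 time in that of Kcnj5.

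Of the 7 genes, 6 reached 1 TPM in both libraries, beside 24.6% of all annotated genes and 56.7% of the 22015 nuclear protein-coding genes. The levels ran from 212 TPM for Kcnk3 to 0.10 TPM for Kcnj5, as means of both libraries, and the plot of TPM by library shows the steps between them. From the highest mean to the lowest the order was Kcnk3, Kcnk9, Cacna1h, Clcn2, Cacna1d, Atp2b3 and Kcnj5. Between neighbours in that order, the library values did not overlap for Kcnk3 over Kcnk9 (17.6-fold between means), Cacna1h over Clcn2 (1.67-fold) and Atp2b3 over Kcnj5 (43.1-fold). They overlapped for Kcnk9 and Cacna1h, for Clcn2 and Cacna1d, and for Cacna1d and Atp2b3. Within each library, Kcnk9 still lay above Cacna1h (14.86 and 10.54 TPM in replicate 1, 9.17 and 7.80 in replicate 2). Clcn2 likewise lay above Cacna1d in each (5.89 and 5.45 TPM, then 5.06 and 3.83). Only Cacna1d and Atp2b3 changed places between the libraries (5.45 and 4.72 TPM, then 3.83 and 3.90), so their order was not settled.

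**Figure D1:**
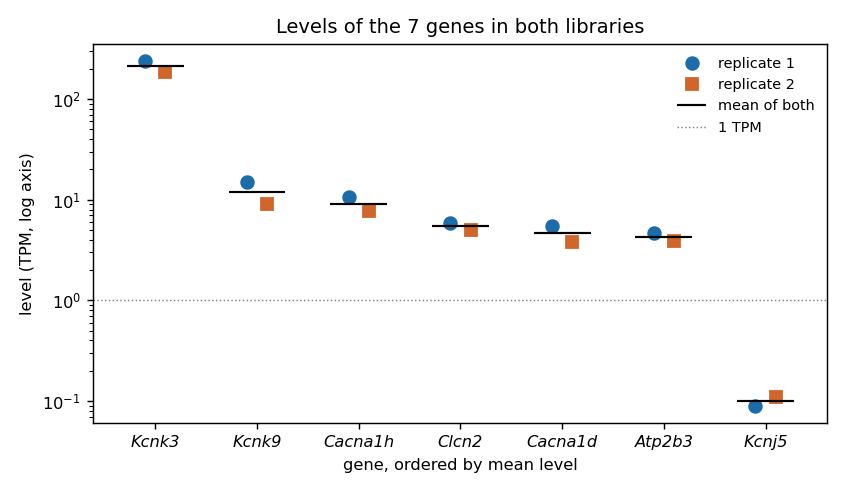
Level of each of the 7 genes in TPM (log axis), with 1 point for each library, a bar at the mean and a line at 1 TPM. Kcnk3 lies near 200 TPM, 5 genes lie between 3.83 and 14.86 TPM, and Kcnj5 lies below the line at 0.09 and 0.11 TPM.

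Kcnk3 encodes TASK-1, an acid-sensitive two-pore-domain leak potassium channel. Its gene spans chr5:30588170-30625271 on the plus strand (mm10; ENSMUSG00000049265.7), with a main transcript of 2 exons. The level was 238 TPM in replicate 1 and 185 TPM in replicate 2, with a mean of 212 ± 37.5 TPM (SD, n = 2). It ranked 240 of the 22015 nuclear protein-coding genes by mean TPM, with 98.9% of them below it. Kcnk3 is also known in brown adipocytes, whose 7 markers summed to 3483 and 3076 TPM. Their part in the level of Kcnk3 and in its family share was not tested. The authors' deposited intervals of TPM, 229 to 239 and 178 to 187, did not overlap, and replicate 2 was the lower. The ratio of replicate 2 to replicate 1, from 30376 and 24391 expected counts, was 0.804 (95% exact binomial interval 0.790 to 0.817, counting error only).

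Kcnk9 encodes TASK-3, which forms channels of its own or pairs with TASK-1. It spans chr15:72501089-72546340 on the minus strand (ENSMUSG00000036760.7). Kcnk9 measured 14.9 and 9.17 TPM in the same order of libraries, a mean of 12.0 ± 4.02 TPM (SD, n = 2). Its deposited intervals, 14.2 to 14.9 and 8.73 to 9.28, lay apart, with replicate 2 again the lower. At 0.627-fold (0.603 to 0.651, from 6638 and 4155 counts), Kcnk9 had the lowest ratio of the 6 genes that averaged at least 100 counts. In bulk tissue, fewer cells of a type and less RNA per cell cannot be told apart, here or in any ratio that follows. The transcript is 12300 bases long with 1206 coding bases, so its counts per TPM are high: by expected counts Kcnk9 made up 15.7% of its family, and by TPM 5.05%.

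The leak channel family was dominated by Kcnk3. Of 14 two-pore-domain potassium channels measured, 4 reached 1 TPM in both libraries and 2 had no count in either. Kcnk3 took 90.5% and 90.1% of the summed TPM of the family, a share of 90.3 ± 0.22% (SD, n = 2), and Kcnk9 ranked second with 5.64% and 4.46%. Kcnk2, the mechanically gated channel TREK-1, followed at 6.40 and 5.32 TPM, and its libraries did not overlap with those of Kcnk9. Kcnk5, the alkaline-activated TASK-2, was at 2.08 and 3.09 TPM, and Kcnk6 at 0.77 and 1.52 TPM. These last were higher in replicate 2, against the direction of Kcnk3 and Kcnk9. Within a library the level of Kcnk3 exceeded that of Kcnk9 by 4.00 and 4.34 on the log2 scale, which is a mean of 4.17 ± 0.24 (SD, n = 2) or 18.0-fold.

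Along the whole coding sequence, 796 of 1162 aligned bases of Kcnk3 and Kcnk9 were identical (68.5%). The longest run of identical bases was 20, and the coding sequences shared no stretch of 31 bases. A coding stretch of 31 bases that matches one therefore does not match the coding sequence of the other. Coding bases make up 32.2% of Kcnk3-201 and 9.80% of Kcnk9-201, and this comparison does not cover the rest. Of all 31-base stretches of the main transcripts, 1.19% for Kcnk3 and 0.220% for Kcnk9 also occur in some other gene. Kcnk3 overlaps the opposite-strand gene Gm9899 by 450 bases, a gene with 786 and 812 counts. The library kit keeps the strand, but whether the counting used it is not given in the sources used here.

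Kcnj5 encodes GIRK4, an inward rectifier that is opened by G proteins and is the gene most often mutated in human aldosterone-producing adenomas. It spans chr9:32314707-32344350 on the minus strand (ENSMUSG00000032034.6). It had 13 and 14 expected counts, that is 0.09 TPM in replicate 1 and 0.11 in replicate 2 (mean 0.10 ± 0.014, SD, n = 2). Exact Poisson intervals of those counts ran from 6.92 to 22.2 and from 7.65 to 23.5. The counts were therefore above 0 in both libraries but too few to set a ratio: 1.08-fold, with an interval from 0.470 to 2.49. The index-based transcript table, made directly from the reads, gave Kcnj5 37.4 and 30.3 estimated counts and 0.497 and 0.408 TPM, which is 4.53 times the alignment-based level. For nuclear protein-coding genes of at least 1 mean TPM the median of that ratio was 1.55. Kcnj5 lies below that set, and no median was taken over genes at a like level. Kcnj5 stayed under 1 TPM in both tables.

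The partner subunits of Kcnj5 were also low. Kcnj3, which encodes GIRK1 and joins GIRK4 in the heart channel, was at 0.20 and 0.17 TPM. Kcnj6 was at 0.11 TPM in both libraries and Kcnj9 at 0.06 and 0.04 TPM. In the family of 15 inward rectifiers 2 genes reached 1 TPM in both libraries. Kcnj5 ranked 10 of 15 in share in the alignment-based table, with 0.718% and 0.925% of the summed TPM. In the index-based table its mean of 0.453 TPM lay above those of Kcnj3 (0.257) and Kcnj6 (0.236), so its rank depends on the table. Kcnj8, a pore subunit of ATP-sensitive channels of vessel walls, was highest at 7.55 and 7.37 TPM. Kcnj2, the strong rectifier Kir2.1, followed at 2.46 and 1.51 TPM and Kcnj12 at 0.59 and 0.76 TPM. The heart muscle markers, a tissue known for Kcnj5, summed to 0.57 and 2.17 TPM, and none of 4 reached 1 TPM in both libraries. Myh6 led at 0.42 and 1.69 TPM, from 23.4 and 75.3 counts. Tnni3 was at 0.15 and 0.26 TPM and Myl7 at 0 and 0.22 TPM. The part of heart muscle in the counts of Kcnj5 was not tested. The log2 level of Kcnj5 minus that of Kcnj3 was −1.15 and −0.63 (mean −0.89 ± 0.37, SD, n = 2). That sign turned in the index-based table, where the mean was 0.81, so the order of these genes was not settled. Counts of Kcnj3 were 36 and 32, against 33.1 and 35.0 in the index-based table. Those of Kcnj5 were 13 and 14, against 37.4 and 30.3, and the cause was not tested.

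**Figure D2:**
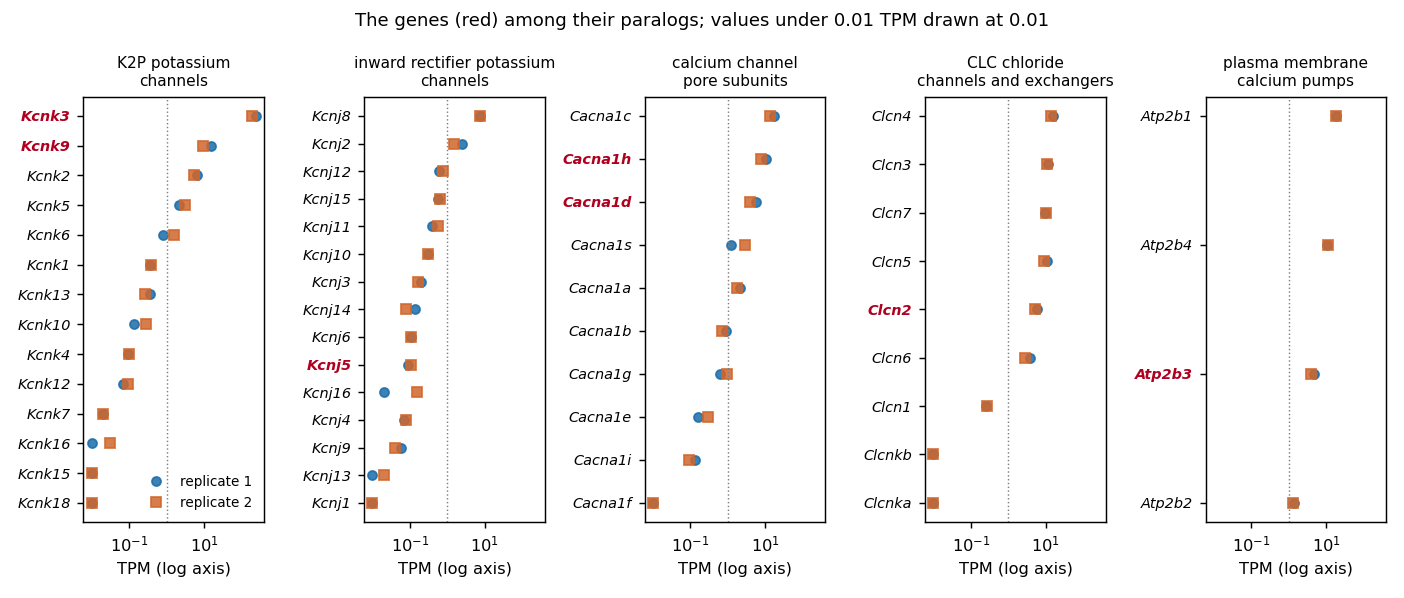
Level in TPM (log axis) of every measured gene in 5 families, with 1 point for each library, the 7 described genes in red, a dotted line at 1 TPM and values under 0.01 TPM drawn at 0.01. Kcnk3 stands above all other two-pore-domain channels, while Cacna1h, Cacna1d, Clcn2 and Atp2b3 lie below at least 1 relative. Kcnj5 ranks 10 of 15 by these alignment-based values.

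Cacna1h encodes Cav3.2, a T-type calcium channel that opens at weak depolarisation. It spans chr17:25374285-25433783 on the minus strand (ENSMUSG00000024112.16). Its level was 10.5 TPM in replicate 1 and 7.80 TPM in replicate 2, with a mean of 9.17 ± 1.94 TPM (SD, n = 2), from 2407 and 2043 counts. The deposited intervals met at their edges (10.126 to 12.7 and 7.70 to 10.127). The ratio of replicate 2 to replicate 1 was 0.850 (0.801 to 0.902).

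Cacna1d encodes Cav1.3, an L-type channel that opens at more negative voltages than its relative Cacna1c. It spans chr14:30039939-30491455 on the minus strand (ENSMUSG00000015968.17), the longest of the 7 genes. Cacna1d was at 5.45 TPM and 3.83 TPM, a mean of 4.64 ± 1.15 TPM (SD, n = 2), from 1303 and 915 counts. Its deposited intervals (5.14 to 6.43 and 3.65 to 4.92) did not overlap. The ratio was 0.703 (0.645 to 0.765), the lowest after Kcnk9. It overlaps Dcp1a by 11921 bases and Chdh by 589 bases on the opposite strand, and Dcp1a had 1073 and 983 counts.

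Cacna1h exceeded Cacna1d by 0.95 and 1.03 on the log2 scale within the libraries, a mean of 0.99 ± 0.05 (SD, n = 2) or 1.98-fold. Among 10 pore subunits of voltage-gated calcium channels, Cacna1h took 27.5% and 24.9% of the summed TPM and ranked second, and Cacna1d took 14.2% and 12.2% and ranked next. First was Cacna1c, Cav1.2 of smooth muscle and heart, at 17.3 and 13.0 TPM. Cacna1d lay 1.67 and 1.76 below Cacna1c on the log2 scale, a mean difference of −1.72 ± 0.07 (SD, n = 2) or 3.29-fold. The smooth muscle markers, 8 of 8 with at least 100 counts, summed to 103 and 173 TPM, led by Rgs5, Acta2 and Tagln. All 8 were higher in replicate 2, from 1.03-fold to 7.90-fold, and the counting interval of the lowest included 1 (0.977 to 1.10). Cacna1c was 0.777-fold in replicate 2, and the part of smooth muscle in its level was not tested. Cacna1a was at 2.08 and 1.77 TPM. Cacna1s, the skeletal muscle subunit, was at 1.19 and 2.86 TPM and 2.20-fold higher in replicate 2, as were the 7 skeletal muscle markers by a median of 1.47 on the log2 scale, and their part in its level was not tested.

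Auxiliary subunits bring the pore to the membrane and set its gating. Of 8 measured, 5 had a mean of at least 100 counts. Of those, 4 were lower and 1 was higher in replicate 2, with a median log2 ratio of −0.28. Among all genes with that many counts 51.0% were lower. Cacnb3, 1 of the 4, was nearly equal in the libraries (0.998-fold, 0.864 to 1.15). Cacna2d1 led at 21.4 and 16.8 TPM, and its ratio of 0.797 lay close to that of Kcnk3. Cacnb2 was at 10.5 and 9.82 TPM and Cacnb3 at 4.36 and 4.20 TPM. T-type channels such as Cav3.2 can work without these subunits.

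Clcn2 encodes ClC-2, a chloride channel opened by hyperpolarisation, through which chloride leaves the cell and depolarises it. It spans chr16:20702964-20717746 on the minus strand (ENSMUSG00000022843.17). The level was 5.89 TPM in replicate 1 and 5.06 TPM in replicate 2, a mean of 5.475 ± 0.587 TPM (SD, n = 2). The deposited intervals, 5.41 to 7.12 and 4.86 to 6.38, overlapped. From 577 and 534 counts the ratio was 0.926, and its interval of 0.822 to 1.04 included 1, so no difference between the libraries was detectable for Clcn2 at this depth. Of 9 CLC genes it ranked 5, with 10.5% and 9.95% of the summed TPM. Those above it are chloride-proton exchangers of endosomes and lysosomes. Clcn4 was at 14.98 and 13.37 TPM, Clcn3 at 11.0 and 10.7 TPM, and Clcn7 at 9.59 and 9.90 TPM. Clcn2 lay 0.90 and 1.08 below Clcn3 on the log2 scale, a mean of −0.99 ± 0.13 (SD, n = 2) or 1.99-fold.

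Atp2b3 encodes PMCA3, a plasma membrane pump that exports calcium and is known best from neurons. It spans chrX:73503086-73571005 on the plus strand (ENSMUSG00000031376.15). It was at 4.72 and 3.90 TPM, a mean of 4.31 ± 0.580 TPM (SD, n = 2), from 773 and 636 counts. Its deposited intervals, 4.32 to 4.98 and 3.55 to 4.16, did not overlap, and the ratio was 0.824 (0.740 to 0.916). Among the 4 plasma membrane calcium pumps it ranked 3, with 13.9% and 11.5% of the summed TPM. The widespread pump Atp2b1 was highest at 17.66 and 17.65 TPM, Atp2b4 was at 10.2 and 11.1 TPM, and Atp2b2, another neuronal pump, was lowest at 1.40 and 1.30 TPM. Atp2b3 lay 1.90 and 2.18 below Atp2b1 on the log2 scale, a mean of −2.04 ± 0.19 (SD, n = 2) or 4.11-fold. The sum over the family was nearly equal in the libraries, 33.95 and 33.91 TPM, so the share of Atp2b3 was lower in replicate 2 by about as much as its level. Markers of sympathetic neurons, with 6 of 6 at 100 counts or more, summed to 19.8 and 33.2 TPM and were led by Stmn2, Gal and Prph. Of these 6 markers 2, Gal and Elavl4, were lower and 4 were higher in replicate 2, and their part in the level of Atp2b3 was not tested.

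Between the libraries the 6 genes averaging at least 100 counts all had ratios below 1: 6 of 6 were lower in replicate 2, beside 51.0% of the 13188 annotated genes with that many counts. Their median log2 ratio was −0.30, or 0.814-fold, whereas the median over all 13188 genes was −0.01 with its 5th to 95th percentile from −0.32 to 0.89. None of the 6 was more than 2-fold apart, beside 4.48% of all genes, and 1, Kcnk9, was more than 1.5-fold lower, beside 0.849%. Kcnk9 at −0.67 and Cacna1d at −0.51 lay below the 5th percentile, Kcnk3 at −0.32 lay near it, and Atp2b3 (−0.28), Cacna1h (−0.24) and Clcn2 (−0.11) lay within the band. Scaling by library total or by spike-ins in place of TMM shifted every ratio by −0.08 or −0.06, and none of the 6 changed direction.

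Marker lists of several cell types were compared beside these ratios. All 9 zona glomerulosa markers were lower in replicate 2, with a median log2 ratio of −0.41 and a sum of 284 and 194 TPM. The highest were Dab2 at 141 and 101 TPM, Cyp11b2 at 72.4 and 38.7 TPM, and Hsd3b6 at 18.3 and 13.2 TPM. All 9 chromaffin cell markers, led by Chga, Chgb and Pnmt, were lower by a median of −0.23, with sums of 1707 and 1439 TPM. The 8 cortex markers, led by Hsd3b1, Star and Cyp21a1, were lower by a median of −0.14, with sums of 6346 and 5553 TPM. Brown adipocyte markers, cells in which Kcnk3 is also known, were all detected (7 of 7) and summed to 3483 and 3076 TPM, with 4 lower and 3 higher, led by Ucp1, Cox8b and Cox7a1. Liver, skeletal muscle and smooth muscle markers were higher in replicate 2, 6 of 6, 7 of 7 and 8 of 8. The part of each of these cell types in the ratios of the channel genes was not tested.

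**Figure D3:**
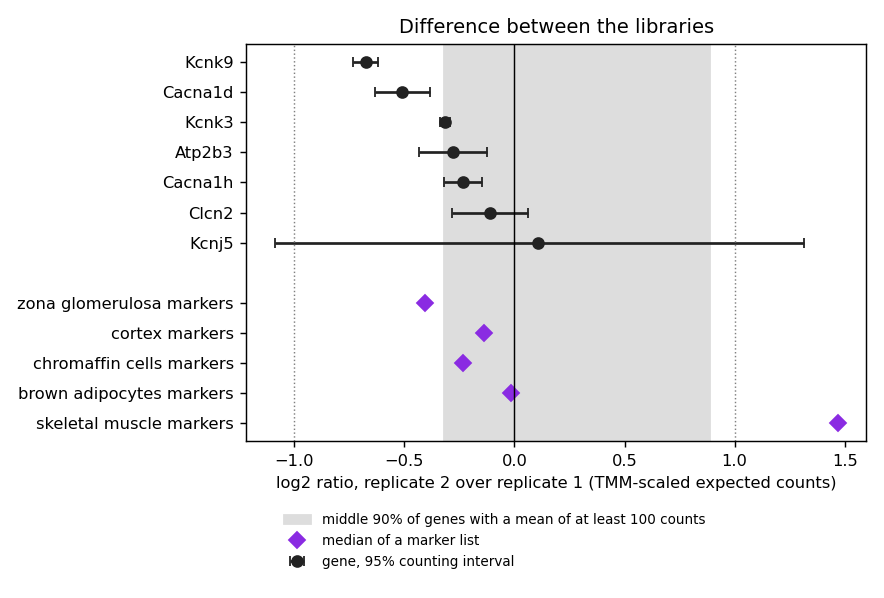
Log2 ratio of replicate 2 to replicate 1 (TMM-scaled expected counts) for the 7 genes with 95% counting intervals, and for marker lists as diamonds at the median. The grey band is the 5th to 95th percentile of 13188 genes (−0.32 to 0.89); 6 genes lie below 0, Kcnk9 and Cacna1d lie below the band, and the interval of Kcnj5 runs from −1.09 to 1.32.

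Set against Cyp11b2 of the same library, the 6 detected genes stood higher in replicate 2 than in replicate 1. Cyp11b2 itself had a ratio of 0.543 (0.515 to 0.572), below the intervals of those 6. That direction depends on the reference, since Cyp11b2 had the lowest log2 ratio of the 9 zona glomerulosa markers (−0.88, median −0.41). Kcnk9 (−0.67) and Cacna1d (−0.51) lay below that median, and Kcnk3, Atp2b3, Cacna1h and Clcn2 lay above it. Kcnk3 lay above Cyp11b2 by 1.72 and 2.26 on the log2 scale of TPM, a mean of 1.99 ± 0.38 (SD, n = 2) or 3.97-fold. Kcnk9 lay below it by a log2 difference of −2.28 and −2.08, with a mean of −2.18 ± 0.15. For Cacna1h the differences were −2.78 and −2.31, for Clcn2 −3.62 and −2.94, for Cacna1d −3.73 and −3.34, and for Atp2b3 −3.94 and −3.31. For Kcnj5 they were −9.65 and −8.46, from too few counts to set a direction. Kcnk3 was thus above the aldosterone synthase transcript in both libraries, and the other 6 were below it in both.

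The genes through which angiotensin II and calcium reach Cyp11b2 were measured beside the channels. Of 27 listed, 25 averaged at least 100 counts. Of these, 18 were lower and 7 higher in replicate 2, with a median log2 ratio of −0.06. Among all genes with that many counts 51.0% were lower. The receptor gene Agtr1a was at 69.4 and 52.4 TPM (ratio 0.829), and Agtr1b, its glomerulosa form in rodents, at 3.44 and 2.18 TPM (ratio 0.644, 0.527 to 0.786). Nr4a1, a calcium-induced activator of Cyp11b2 that also responds to many other stimuli, went the other way, at 120 and 196 TPM, 1.78-fold higher in replicate 2 (1.74 to 1.83).

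The main transcript of 6 genes made up from 19.0% to 94.9% of the gene's TPM in a library, and Kcnk9 has 1 annotated transcript. Kcnk3-201 held 93.0% and 94.9% of Kcnk3 in the alignment-based table and 98.1% and 97.8% in the index-based one. The rest was Kcnk3-202, a non-coding transcript of 507 bases. For Clcn2 the main transcript Clcn2-201, with 24 exons and 2724 coding bases, held 59.6% and 70.1%, and transcripts with a retained intron held 35.1% and 22.2%. The index-based shares were 49.7% and 66.0%, and 39.2% and 22.2%. In total RNA, unspliced precursors and mature transcripts that keep an intron cannot be told apart by these shares.

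The transcripts of Cacna1h differed more between the tables than the gene did. Cacna1h-205, of 8230 bases, held 72.7% and 84.1% in the alignment-based table but 44.0% and 10.5% in the index-based one. Cacna1h-201 took 0% and 0% in the first and 20.02% and 58.7% in the second. Its sequence is the first 8220 bases of Cacna1h-205, which has 10 further bases at the 3′ end, and both have the same 7077 coding bases. Added together, they held 72.7% and 84.1% against 64.0% and 69.2%. Cacna1h-207, a shorter coding transcript of 879 bases, was at 0% in the alignment-based table and held 17.0% and 18.4% in the index-based one. The shares of these transcripts one by one cannot be read as splice differences between the libraries.

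Cacna1d had the most annotated transcripts of the 7 genes. Of its 12, 3 were at 0 in both libraries, and protein-coding transcripts together held 55.0% and 61.4% of the TPM, against 70.8% and 68.5% in the index-based table. Cacna1d-202, with 47 exons and 6498 coding bases, held 19.0% and 28.5%, and 44.9% and 38.2% in the other table. Cacna1d-204, with 6432 coding bases, held 13.9% and 21.9%, but 3.01% and 17.0% in the other table. The retained-intron transcript Cacna1d-203 held 10.1% and 14.9%. Cacna1d-202 was first of these in each library of both tables, and the shares of the others depended on the table. Its lead was narrow in replicate 1 of the alignment-based table. There the retained-intron transcript Cacna1d-212 held 18.6% and the coding transcript Cacna1d-209 held 17.2%, beside 8.62% and 8.36% in replicate 2. In the index-based table Cacna1d-212 held 0.0164% and 0%, and Cacna1d-209 held 13.3% and 10.6%.

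**Figure D4:**
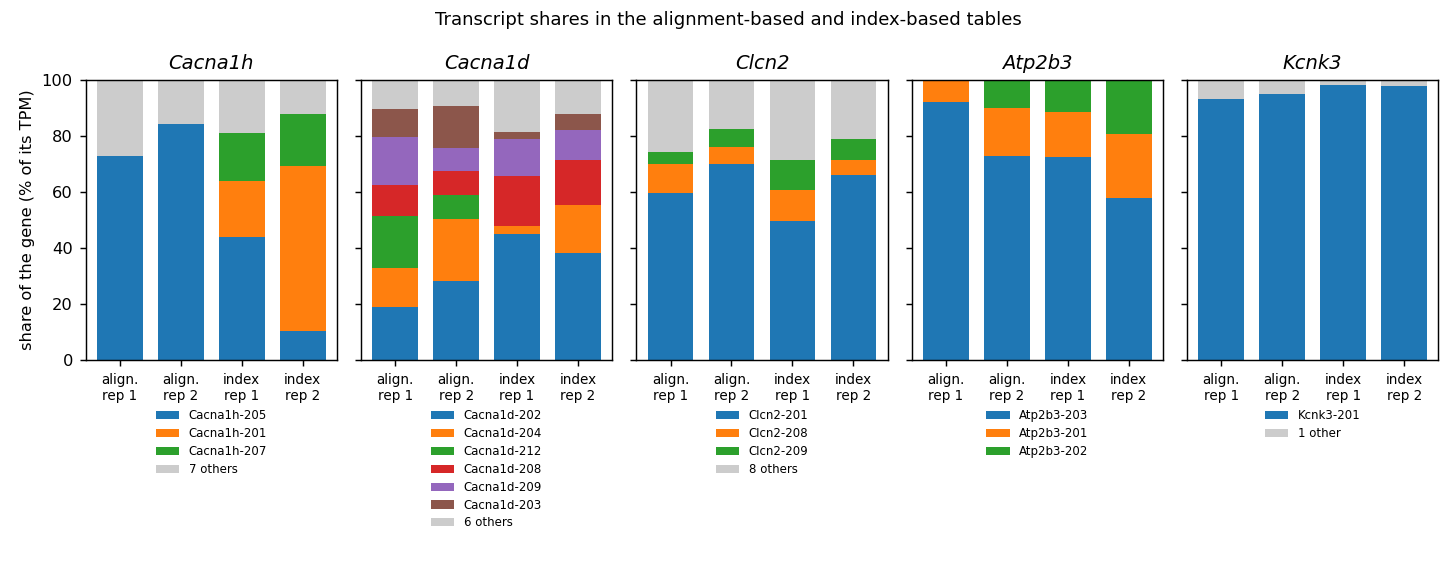
Share of each gene's TPM by transcript (percent, stacked to 100) for Cacna1h, Cacna1d, Clcn2, Atp2b3 and Kcnk3 in both libraries and both tables. Kcnk3-201 fills at least 93.0% of every Kcnk3 bar, whereas Cacna1h-205 runs from 84.1% down to 10.5% between tables.

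Atp2b3 has a cassette exon that changes the end of the pump, and its sequence is shown because it separates the main transcript from both others. The line gives the 154 bases of the exon in capitals, at chrX:73559864-73560017 on the plus strand, between 20 coding bases on each side, from GENCODE M21.
Atp2b3 exon: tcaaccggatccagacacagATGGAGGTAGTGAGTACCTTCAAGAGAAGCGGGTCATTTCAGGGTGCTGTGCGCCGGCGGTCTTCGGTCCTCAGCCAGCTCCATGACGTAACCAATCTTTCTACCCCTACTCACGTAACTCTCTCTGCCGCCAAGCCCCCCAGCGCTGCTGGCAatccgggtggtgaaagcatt
Atp2b3-203 carries this exon and has 3519 coding bases. Atp2b3-202 is the same transcript without it and has 3660 coding bases, since the exon shifts the frame to an earlier stop codon. Inclusion is known to give the pump forms named a, with a shorter tail for binding calmodulin, and skipping the forms named b. Atp2b3-203 held 91.9% of the TPM in replicate 1 and 72.8% in replicate 2, and 72.5% and 57.8% in the index-based table. Atp2b3-202 held 0% and 10.0%, and 11.5% and 19.2% in the other table. Atp2b3-201, which lacks the exon too and has 3432 coding bases, held 8.07% and 17.2%, and 16.0% and 23.0%. In both tables the transcript with the exon was the most abundant in each library, and its share was lower in replicate 2.

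Kcnj5 had too few counts for its transcripts to be told apart. In the alignment-based table Kcnj5-201 held 66.7% and 45.5% and Kcnj5-202, with the same 1257 coding bases in length, 33.3% and 18.2%. In the index-based table most was given to Kcnj5-203, 67.0% and 75.4%, and Kcnj5-201 held 24.7% and 11.9%.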

How the data were processed

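Per the file headers and the deposited notes, the authors quantified genes and transcripts from alignments to the transcriptome (mm10, GENCODE M21, with tRNAs, spike-ins and phiX). These tables hold expected counts, not normalised, and TPM per library, with the authors' interval bounds of TPM, whose confidence level the sources used here do not give. A second deposited transcript table, made from the reads and an index, holds estimated counts and TPM. The sources used here name no aligner, tool or version. Alleles of the hybrid were not separated.

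The 2 libraries held 36982665 and 38984236 expected counts, 0.892% and 0.879% of them not on annotated genes. TPM was used for levels and shares as deposited. The ratio of replicate 2 to replicate 1 was taken after TMM scaling of the expected counts (edgeR 4.0.16, R 4.3.3; tested on simulated data), and DESeq2 1.42.0 size factors were an alternative. Counts were rounded for these factors and for intervals. Ratios have 95% Clopper-Pearson intervals and counts exact Poisson ones. Without molecular identifiers these reflect counting error alone. Detected means at least 1 TPM in both libraries, and ratios were counted over genes averaging at least 100 counts. No p-value was computed.

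The rule for the 7 genes uses no measured value, but they and the lists were chosen with earlier results of these data known. Named beside the 7 genes were the 3 highest others of each family, the 5 highest of the calcium signal list, preset partners and receptors, Cyp11b2, and the 3 highest markers of lists set beside a result. Of transcripts, the main one and those with at least 10% of the gene in both libraries were named. Kcnj6, Kcnj9, Elavl4 and the overlapping genes fell outside this rule and were chosen after their values were seen. The same holds for the transcripts Kcnk3-202, Cacna1h-201, Cacna1h-207, Cacna1d-209, Cacna1d-212, Atp2b3-201, Atp2b3-202 and Kcnj5-203. Sequences were read from the GENCODE M21 transcripts with Biopython 1.88. Some of the named relatives and signal genes are not reported here. Alternatives were the second table, other scalings, filters, pseudocounts and each library alone.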

Additional observations from a re-analysis of the deposited data

How the results depend on the processing

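Levels moved with the table and the denominator, and Cacna1d and Atp2b3, whose libraries overlapped, changed places in the index-based table. In replicate 2 of that table Kcnk9 (12.1 TPM) also lay below Cacna1h (13.2 TPM). In the index-based table the mean TPM was 300.6 for Kcnk3, 16.5 for Kcnk9, 0.453 for Kcnj5, 5.99 for Cacna1d, 15.5 for Cacna1h, 8.58 for Clcn2 and 6.47 for Atp2b3. Rescaled over nuclear protein-coding genes it was 638, 36.3, 0.299, 13.99, 27.6, 16.5 and 13.0 TPM in the same order of genes. The number of detected genes stayed at 6 with minimums of 0.5 and 2 TPM and in the index-based table. By library total the log2 ratio was −0.39 for Kcnk3 and −0.75 for Kcnk9, and by spike-ins −0.37 and −0.73. Kcnj5 was the only one of the 7 whose ratio changed sign over the scalings and tables (−0.31 to 0.11). At 1.5-fold in place of 2-fold, 1 gene, Kcnk9, was apart.

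With a pseudocount of 1 TPM, Cacna1h minus Cacna1d was 0.85, Atp2b3 minus Atp2b1 −1.82 and Cacna1d minus Cacna1c −1.52 on the log2 scale. In the index-based table the first was 1.38 and the last −2.20. Kcnj5 minus Kcnj3 was −0.51 and −0.11 with pseudocounts of 0.1 and 1 TPM, and 0.81 in the index-based table. Family shares in the index-based table were 89.8% for Kcnk3, 2.46% for Kcnj5 and 10.4% for Cacna1d. From counts, not per length, they were 80.9% for Kcnk3, 15.7% for Kcnk9, 0.989% for Kcnj5, 29.3% for Cacna1h and 7.04% for Clcn2. Index-based main transcript shares were 97.9% for Kcnk3-201, 18.3% for Kcnj5-201, 41.5% for Cacna1d-202, 27.2% for Cacna1h-205 and 65.1% for Atp2b3-203. Apart from pseudocounts and per-length counting, which change these values by construction, the cause was not tested. No paired comparison of groups was possible because the design has 1 group. Genes were set against each other within each library by the log2 differences. Depth limits Kcnj5 (13 and 14 counts), whose direction between libraries was not detectable.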

Other observations

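The deposited TPM of a pair of main transcripts lay above the upper bound of its own deposited interval in both libraries. For Kcnk3-201 the values were 221.69 and 175.95 TPM beside upper bounds of 220.12 and 174.96. For Cacna1h-205 they were 7.66 and 6.56 TPM beside 7.645 and 6.49. Nr4a2, a relative of Nr4a1 on the calcium signal list, measured 2.97 and 7.51 TPM in replicates 1 and 2. It was the only one of that list's 25 genes with enough counts that was more than 2-fold apart, at 2.59-fold (2.29 to 2.94). It fell outside the rule for named genes and was chosen after its values were seen.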
